A study of Mus musculus with 24 samples.

Results

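The cytosolic ribosomal protein genes encode the proteins of the large and small subunits of the ribosome that translates nuclear mRNAs. They were chosen by symbol: a gene was a member where its array features carried a single symbol of the Rpl or Rps series with a number, or Rplp0, Rplp1, Rplp2 or Rpsa. The ribosomal S6 kinases were left out, as were pseudogenes, of which Rpl6l and Rps4l match the symbols. This gave 62 genes of the 22180 with a single symbol, 39 of the large and 23 of the small subunit, measured by 102 features. Another 12 genes of the series, among them Rpl10, Rpl12 and Rps2, were measured only by features that carry several symbols and are not analysed here.

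Transcripts were measured on Affymetrix arrays, with a single sample on each, in the heart of male mice, 8 weeks old, with 2 copies of the Clock Δ19 allele. The transcript of this allele lacks an exon of Clock, and its protein binds DNA but activates transcription poorly. Every animal carried the allele in all its cells. The mice lived in 12 h of light and 12 h of darkness, and 4 hearts were taken at each of 6 zeitgeber times (ZT, hours after lights on): ZT03, ZT07 and ZT11 in the light and ZT15, ZT19 and ZT23 in the dark. No comparison bears on the genotype, because hearts with the normal Clock gene were not analysed here.

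Ribosomal proteins are needed in fixed proportions in each ribosome, and a protein left without its partners is degraded. Their mRNAs are among the most abundant of the cell and begin with a C followed by a run of pyrimidines, the terminal oligopyrimidine (TOP) motif, through which the kinase mTOR, with the RNA-binding protein LARP1, controls their translation. In mouse liver this translation follows the time of day, and in heart muscle the making of ribosomes rises when the muscle grows.

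The pyrimidine run was looked for in RefSeq promoter windows (GRCm38.p6) of 300 bases, 250 before the annotated start of transcription and 50 from it, which were available for 49 of the 62 genes. A C that opens a run of at least 5 pyrimidines at exactly the annotated first base was present for 11 of the 49 (22.4%), against 3.01% of all 27025 genes with a window. Within 20 bases of the annotated start, a run of at least 6 pyrimidines opened by C was present for 33 of the 49 (67.3%), against 32.8% of all genes. The motif CCGGAAG, searched on both strands and known to be bound by ETS factors, was found for 22 of the 49 (44.9%), against 9.93% of all genes. The E-box CACGTG, which reads the same on both strands and is bound by CLOCK with its partner BMAL1, was found for 4 of the 49 (8.16%; Rpl14, Rpl19, Rpl34 and Rps19), against 8.09% of all genes. A match is only a description of these letters. The 6 sequences below are shown because their genes carry the results: the first 3 passed a test described below, Rpl35 and Rps18 have a run and followed the median of the family closely, and Rpl3l is the muscle paralog without one. Each holds 25 bases before the annotated start and 20 from it, 5′ to 3′ on the gene's strand, with the run at the start in capitals. They lie at chr14:18270967-18271011 (minus strand) for Rpl15, chr11:114668555-114668599 (plus) for Rpl38, chr4:86857348-86857392 (minus) for Rps6, chr2:39005112-39005156 (minus) for Rpl35, chr17:33955646-33955690 (minus) for Rps18 and chr17:24727801-24727845 (plus) for Rpl3l.
Rpl15: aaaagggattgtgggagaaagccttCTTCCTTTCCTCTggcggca
Rpl38: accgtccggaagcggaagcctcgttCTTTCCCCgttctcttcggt
Rps6: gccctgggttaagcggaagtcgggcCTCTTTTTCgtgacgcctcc
Rpl35: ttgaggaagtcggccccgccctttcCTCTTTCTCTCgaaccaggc
Rps18: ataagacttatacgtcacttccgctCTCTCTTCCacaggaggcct
Rpl3l: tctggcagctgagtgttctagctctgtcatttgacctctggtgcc

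The authors' values are logarithms, taken as log2 although the base is not stated, and are centred on each feature's own median over the 24 arrays. They therefore hold differences between hearts and no level that could be compared between genes, except for a coarse class: the spacing of the numbers shows whether a feature lay at or above 8 before centring. That held for 15 of the 102 ribosomal protein features (14.7%), against 1.97% of all 34351 features, and the class included Rpl15 and Rps6. In the same class were 9 of 10 cardiomyocyte markers, 3 of 8 endothelial and 1 of 8 fibroblast markers, and 0 of 10 leukocyte, 0 of 6 smooth muscle and 0 of 8 skeletal muscle markers. The number of arrays limits the precision. The median SD between hearts of the same time was 0.099 over the 62 genes (0.026 to 0.325), against 0.087 over all genes. Replicates are separate hearts per the labels. In whole-heart RNA, fewer cells of a type and less RNA per cell cannot be told apart.

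Replicate 1 of ZT11 stood apart from the other hearts. The median of the 62 genes was 0.11 there, the highest of the 24 hearts, and 53 of the 62 genes lay above their own median. This array also had the largest SD over all genes (0.15) and the lowest of the 24 array weights that limma estimates (0.54). Replicate 4 of ZT03 was the lowest heart, with a median of -0.079 and 16 of 62 genes above 0.

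**Figure D1:**
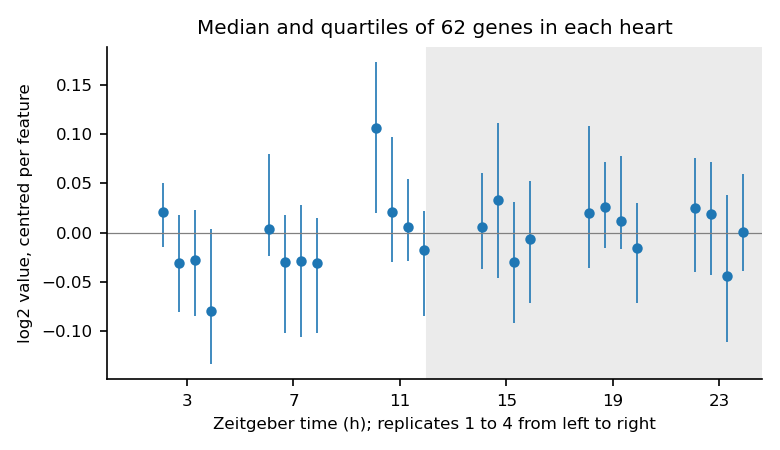
Median (points) and quartiles (lines) of the 62 ribosomal protein genes in each of the 24 hearts, in centred log2 units, against zeitgeber time in h; the grey area is the dark phase and replicates 1 to 4 run from left to right. Replicate 1 of ZT11 lies highest, at 0.11, and replicate 4 of ZT03 lowest, at -0.079.

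The first question was whether a gene differed between any of the 6 time points. By limma's moderated F test, with Benjamini-Hochberg adjustment over all 22180 genes at 0.05, 3 of the 62 genes did (4.84%), against 1.48% of all genes. They were Rplp1, a protein of the acidic stalk of the large subunit that recruits elongation factors, Rpl15, a core protein of the large subunit, and Rpl38, a large-subunit protein needed in mouse embryos for the translation of a set of Hox mRNAs. Without adjustment, 13 of 62 had a p under 0.05 (21.0%), against 13.4% of all genes. They numbered 9 (14.5%), against 13.1%, when replicate 1 of ZT11 was left out, and 10 (16.1%), against 13.3%, when replicate 4 of ZT03 was. The distance between the highest and the lowest time-point mean had a median of 0.16 over the 62 genes and 0.115 over all genes.

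Rplp1 had its highest values at ZT11. Its 4 hearts held -0.077, -0.15, -0.083 and 0.005 at ZT03, -0.038, -0.055, -0.22 and -0.11 at ZT07, and 0.17, 0.14, 0.165 and 0.081 at ZT11. In the dark they held 0.004, 0.043, 0.017 and 0.070 at ZT15, -0.060, 0.013, -0.012 and -0.053 at ZT19, and 0.049, -0.043, 0.064 and 0.022 at ZT23. All 4 ZT11 hearts lay above each of the other 20. The time-point means spanned 0.25, with an adjusted p of 0.0182 in limma's F test. This call was lost without replicate 3 of ZT03 (0.0509), with the feature of largest SD in place of the mean of its 2 features (0.0529) and when each feature was tested on its own (0.0546).

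Rpl15 ran the other way. Its hearts held 0.26, 0.15, 0.16 and 0.27 at ZT03, 0.27, 0.080, 0.22 and 0.12 at ZT07, and -0.002, -0.013, -0.23 and -0.092 at ZT11. In the dark they held -0.009, 0.068, -0.18 and -0.070 at ZT15, -0.063, -0.14, 0.035 and 0.155 at ZT19, and -0.13, -0.058, 0.002 and -0.12 at ZT23. The first 2 light-phase times were high, and from ZT11 on every heart but replicate 4 of ZT19 lay below all 8 of them. The means spanned 0.29 (limma's F test, adjusted p = 0.0317). The test was passed in 18 of the 24 fits that leave out 1 heart each, with adjusted p between 0.0207 and 0.0717; replicates 1 to 4 of ZT03 and replicates 1 and 3 of ZT07 were the hearts without which it was not.

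Rpl38 showed the widest range of means in the family, 0.685, with its high values at ZT11 too. The hearts held 0.18, -0.077, -0.10 and -0.11 at ZT03, 0.089, -0.19, -0.11 and -0.34 at ZT07, and 0.185, 0.83, 0.57 and 0.60 at ZT11. The dark-phase values were -0.17, 0.11, -0.12 and -0.15 at ZT15, 0.34, 0.23, -0.026 and -0.052 at ZT19, and 0.18, 0.10, -0.24 and 0.026 at ZT23. Replicates 2 to 4 of ZT11 were above every other heart, while replicate 1 of ZT11 lay within the range of ZT19. The adjusted p of limma's F test was 0.0318, and it lay between 0.0164 and 0.109 when 1 heart was left out, with 17 of 24 fits passing. The 7 that did not pass left out replicates 2 or 3 of ZT03, replicates 2 or 3 of ZT07, or replicates 2, 3 or 4 of ZT11. Without replicate 3 of ZT03, 0 of the 62 genes passed, against 0.126% of all genes. Without replicate 2 of ZT03 or replicate 3 of ZT07, 1 did (1.61%), against 0.654% and 0.821% of all genes.

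**Figure D2:**
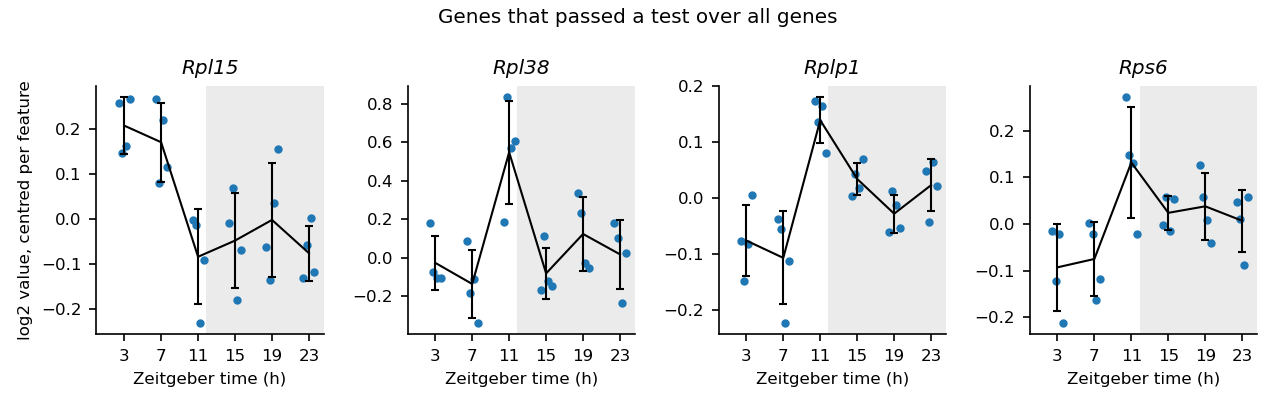
Centred log2 values of Rpl15, Rpl38, Rplp1 and Rps6 in each heart (points), with the mean and SD of the 4 hearts of a time point (line and bars), against zeitgeber time in h; the grey area is the dark phase and each panel has its own scale. Rpl15 is high at ZT03 and ZT07, while the other genes have their highest mean at ZT11.

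The profile was also described by a cosine of 24 h, whose amplitude is the distance from mean to peak; with 1 cycle sampled it does not show that a profile repeats. By limma's F test of the cosine and sine terms, 0 of the 62 genes passed, against 0.0631% of all genes, and the smallest adjusted p was 0.22. Without adjustment, 10 of 62 had a p under 0.05 (16.1%), against 10.8% of all genes. When 1 heart was left out they numbered 4 to 13. The fewest were without replicate 2 of ZT03 (6.45%, against 9.19%) and the most without replicate 3 of ZT15 (21.0%, against 9.92%). Without replicate 4 of ZT03 there were 7 (11.3%, against 10.2%). The median amplitude was 0.039 over the 62 genes and 0.032 over all genes. The smallest p belonged to Rpl15, with an amplitude of 0.125 ± 0.033 (SE) and a fitted peak at 4.49 h (unadjusted p = 0.00415). Next by p came Rpl14, a large-subunit protein, with an amplitude of 0.082 ± 0.026 and a peak at 15.72 h (unadjusted p = 0.0168). Rpl9, also of the large subunit, had 0.118 ± 0.039 and a peak at 2.69 h (0.0217), and Rps6 had 0.079 ± 0.026 and a peak at 14.84 h (0.0218). The largest amplitude, 0.17 ± 0.077, was that of the small-subunit protein gene Rps13, with an adjusted p of 0.571.

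Of the contrasts between times that were run, the one within the light phase called the most members. Between ZT11 and ZT03, limma's contrast called 4 of the 62 genes (6.45%), against 2.29% of all genes. Higher at ZT11 were Rpl38, Rplp1 and Rps6, 3 of 62 or 4.84%, against 0.451% of all genes. Lower was Rpl15, 1 of 62 or 1.61%, against 1.83% of all genes. The contrast was chosen because earlier results of these data placed many highest means at ZT03 and many lowest means at ZT11. Its counts are therefore no separate support for a difference between these times.

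The ZT11 minus ZT03 difference was 0.575 ± 0.125 (SE) for Rpl38 (adjusted p = 0.0172), 0.215 ± 0.039 for Rplp1 (0.00636) and -0.29 ± 0.065 for Rpl15 (0.0190), with 4 hearts a time point. In each of these genes the 4 ZT11 hearts did not overlap the 4 ZT03 hearts. Rplp1 passed without any 1 of the 24 hearts. Rpl15 did not pass without replicate 1 of ZT03 or replicate 3 of ZT11, and Rpl38 not without replicate 2 or 3 of either time point; those adjusted p-values lay between 0.0511 and 0.0753.

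Rps6 encodes the small-subunit protein that S6 kinase phosphorylates when mTOR is active. Its 4 hearts held 0.27, 0.15, 0.13 and -0.022 at ZT11, against -0.015, -0.12, -0.022 and -0.21 at ZT03. The groups overlapped in the lowest ZT11 heart. The difference was 0.225 ± 0.057 (SE; limma, adjusted p = 0.0387). Without replicate 1 of ZT11 it was 0.18 with an adjusted p of 0.151, and the gene passed in 18 of the 24 fits that leave out 1 heart. Over the 6 time points its means were -0.093, -0.075, 0.13, 0.024, 0.038 and 0.007 from ZT03 to ZT23, and the F test was not passed (adjusted p = 0.177).

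The stalk proteins Rplp0, Rplp1 and Rplp2 assemble into one complex on the large subunit. Rplp0 held 0.15, 0.097, 0.11 and 0.14 at ZT11, against 0.025, -0.054, -0.29 and -0.12 at ZT03. The groups did not overlap, and the difference was 0.23 ± 0.068 (SE), close to that of Rplp1, but it did not pass (limma, adjusted p = 0.0768). Rplp2 held 0.049, -0.031, -0.050 and 0.083 at ZT11, against -0.045, -0.058, -0.062 and -0.084 at ZT03. Its difference was 0.075 ± 0.050 (adjusted p = 0.565), and its highest mean lay at ZT23. Rpsa, a small-subunit protein also known as a laminin receptor, differed by 0.087 ± 0.054 (adjusted p = 0.528).

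Over the whole family, with the called genes included, most members sat on the same side. The ZT11 minus ZT03 estimate was above 0 for 46 of the 62 genes (74.2%), against 53.7% of all genes, and its median was 0.056 over the 62 genes and 0.005 over all genes. At an unadjusted p under 0.05 there were 15 genes with an estimate above 0 (24.2%), against 5.52% of all genes, and 4 with one below 0 (6.45%), against 8.99%. The 4 hearts of ZT11 lay above the 4 of ZT03 without overlap for 8 genes (12.9%; Rpl26, Rpl28, Rpl38, Rpl7a, Rplp0, Rplp1, Rps18 and Rps19), against 3.47% of all genes. They lay below without overlap for Rpl15, Rpl39 and Rpl9, 3 genes or 4.84%, against 4.62%. Both subunits had medians above that of all genes, 0.069 over the 39 large-subunit genes and 0.044 over the 23 small-subunit genes. Of the features at or above 8 before centring, those of Rpl19, Rpl28, Rpl35, Rpl7a and Rps6 had a difference above 0. Those of Rpl15, Rpl21, Rpl29, Rpl4 and Rps26 had one below 0, and those of Rpl41 lay on both sides. In Rpl4 and Rpl29 this feature was at -0.090 and -0.034, while the other feature was at 0.69 and 0.25. Without replicate 1 of ZT11 the estimate was above 0 for 38 of 62 (61.3%), against 53.0% of all genes, and the median was 0.028. Without replicate 4 of ZT03 it was above 0 for 41 of 62 (66.1%), against 55.1%, and the median was 0.042. Members with an unadjusted p under 0.05, in either direction, numbered 19 with all hearts (30.6%, against 14.5% of all genes), 11 without replicate 1 of ZT11 (17.7%, against 11.4%) and 14 without replicate 4 of ZT03 (22.6%, against 14.2%). The adjusted calls numbered 3 without replicate 1 of ZT11, where Rps6 was lost (4.84%, against 0.915% of all genes). They numbered 2 (3.23%) without replicate 2 of ZT11 or replicate 2 or 3 of ZT03, against 2.00%, 1.09% and 0.857% of all genes, and 1 (1.61%) without replicate 3 of ZT11, against 1.10%.

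**Figure D3:**
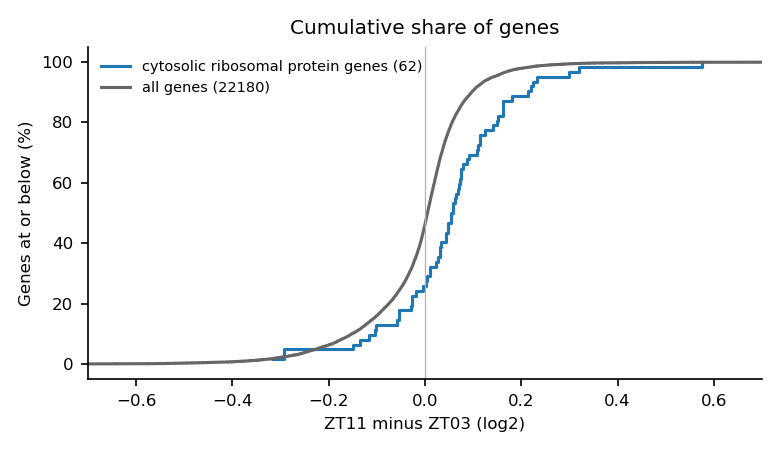
Share of genes (%) at or below each ZT11 minus ZT03 difference (log2 units) for the 62 cytosolic ribosomal protein genes and for all 22180 genes. The curve of the ribosomal protein genes lies to the right of that of all genes over most of its course, with medians of 0.056 and 0.005.

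Of the members that did not pass, Rpl9, a large-subunit protein, had the lowest estimate at -0.315 ± 0.093 (adjusted p = 0.0803). It held -0.18, -0.001, -0.14 and -0.024 at ZT11, against 0.19, 0.36, 0.295 and 0.072 at ZT03, with no overlap. Rps13 followed at -0.29 ± 0.19 (adjusted p = 0.533), and its ZT03 hearts ranged from -0.28 to 0.50. At the other end were Rpl26, at 0.32 ± 0.12 (adjusted p = 0.180), and Rpl4, whose extension lines the tunnel of the nascent chain, at 0.30 ± 0.11 (0.162). Without replicate 1 of ZT11, Rpl26 was at 0.21 and Rpl4 at 0.22.

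Across the day, ZT11 held the highest mean of 19 of the 62 genes (30.6%), against 18.5% of all genes, and ZT03 the lowest mean of 22 (35.5%), against 21.5%. ZT07 held the lowest mean of 14 more (22.6%), against 15.8%. ZT11 held the highest mean of 15 genes when its replicate 1 was left out, against 19.1% of all genes. Without replicate 4 of ZT03, ZT03 held the lowest mean of 17 genes (27.4%), against 25.1%. In the light phase the family's median averaged -0.029 ± 0.040 (SD, n = 4) over the ZT03 hearts, -0.022 ± 0.017 over those of ZT07 and 0.029 ± 0.053 over those of ZT11. In the dark phase it averaged 0.001 ± 0.026 for ZT15, 0.011 ± 0.018 for ZT19 and 0.000 ± 0.032 for ZT23. The ZT11 hearts ranged from -0.017 to 0.106, against -0.079 to 0.021 at ZT03, and overlapped them; without replicate 1 the ZT11 mean was 0.003.

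**Figure D4:**
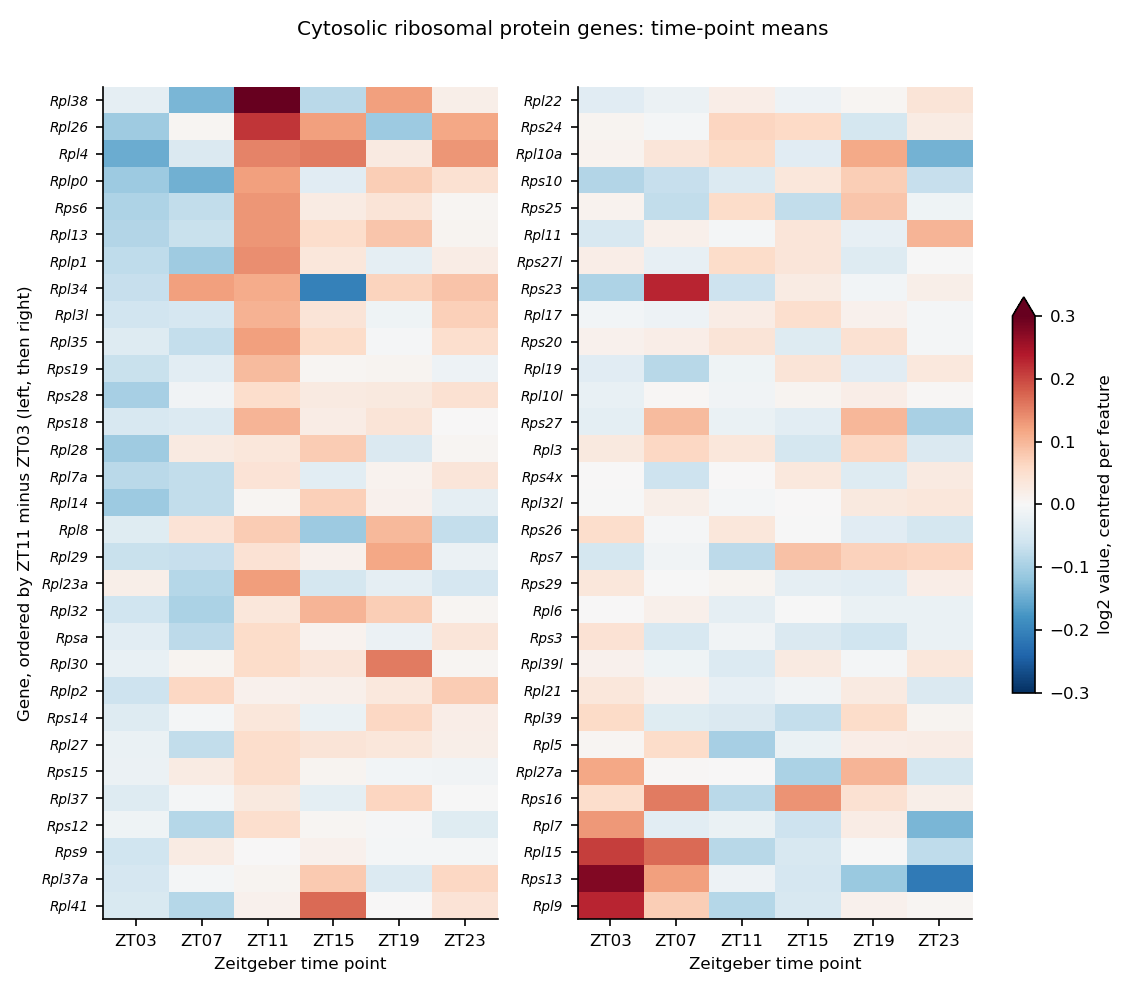
Mean of 4 hearts at each zeitgeber time (columns) for the 62 genes (rows, ordered from the highest to the lowest ZT11 minus ZT03 difference, left block then right); colour gives the centred log2 value, blue below and red above 0. Rpl38 leads at ZT11, and Rpl15, Rps13 and Rpl9 are red at ZT03.

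Cell type marker lists were read at the same 2 time points. The median over 10 cardiomyocyte markers ranged over the 4 hearts from -0.040 to 0.068 at ZT11, against -0.073 to 0.025 at ZT03, and Tnni3, a troponin subunit, was the 1 of 10 that passed, higher at ZT11. The median over 8 fibroblast markers ranged from -0.15 to 0.17 at ZT11, against 0.053 to 0.15 at ZT03, with the proteoglycan gene Dcn the 1 of 8 that passed, lower at ZT11. Over 10 leukocyte markers the range was -0.13 to 0.082 at ZT11, against -0.036 to 0.055 at ZT03, and 0 of 10 passed in limma, with 2 at an unadjusted p under 0.05. Over 6 smooth muscle markers it was -0.025 to 0.15 at ZT11, against -0.076 to 0.068 at ZT03, and over 8 endothelial markers -0.093 to 0.053 at ZT11, against -0.020 to 0.058 at ZT03. Of the smooth muscle markers 0 of 6 passed in limma, with 0 at an unadjusted p under 0.05. Of the endothelial markers 1 of 8 passed, Emcn, lower at ZT11. At an unadjusted p under 0.05 were also 3 of 8 fibroblast, 2 of 10 cardiomyocyte and 2 of 8 endothelial markers. Of all genes, 2.29% passed this contrast and 14.5% had an unadjusted p that small. Which markers are at 0 cannot be read from centred values. Their part in the ribosomal protein values was not tested.

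The dark phase (ZT15, ZT19 and ZT23) was next set against the light phase (ZT03, ZT07 and ZT11). By limma 0 of the 62 genes passed, against 0.379% of all genes, and 3 had an unadjusted p under 0.05 (4.84%), against 10.5%. These were Rpl15 at -0.14 ± 0.037 (SE, 12 hearts a phase; adjusted p = 0.107), Rps13 at -0.25 ± 0.11 and Rpl41, a very short basic protein, at 0.11 ± 0.047. The estimate was above 0 for 40 of 62 genes (64.5%), against 52.6% of all genes, and the median was 0.018 over the 62 genes and 0.002 over all genes. Without replicate 1 of ZT11 the estimate was above 0 for 42 (67.7%), against 52.8%, and 11 genes had an unadjusted p under 0.05 (17.7%), against 12.6%. Without replicate 4 of ZT03 these were 37 (59.7%), against 53.5%, and 4 (6.45%), against 10.5%.

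Time points 12 h apart gave 0 calls among the 62 genes in each of 3 limma contrasts. For ZT15 minus ZT03, 1.08% of all genes passed. At an unadjusted p under 0.05 there were 11 members (17.7%), against 13.0% of all genes; 6 had an estimate above 0 (9.68%, against 5.05%) and 5 below 0 (8.06%, against 7.96%). Of all estimates, 41 of 62 were above 0 (66.1%), against 53.4%; without replicate 4 of ZT03 this was 37 (59.7%), against 55.1%. Groups did not overlap for 6 genes with ZT15 above (9.68%, against 3.41%) and 4 with ZT15 below (6.45%, against 4.62%), and without that heart for 7, against 6.01% of all genes, and 6, against 7.18%. Rpl15 came nearest, at -0.26 ± 0.065 (adjusted p = 0.0563), with -0.009, 0.068, -0.18 and -0.070 at ZT15, against 0.26, 0.15, 0.16 and 0.27 at ZT03, without overlap. Rpl9 was at -0.28 ± 0.093 (adjusted p = 0.160), and its groups did not overlap either. Rpl4 was at 0.31 ± 0.11 and Rpl41 at 0.22 ± 0.082, with adjusted p of 0.182 and 0.230. The 4 ZT15 hearts of Rpl41 held 0.12, 0.16, 0.26 and 0.14, against 0.015, -0.004, -0.084 and -0.11 at ZT03, and did not overlap.

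For ZT19 minus ZT07, 0% of all genes passed and 4 members had an unadjusted p under 0.05 (6.45%), against 5.58% of all genes. They were Rplp0 at 0.22 ± 0.068, Rpl29 at 0.185 ± 0.062, Rpl30 at 0.15 ± 0.050 and Rpl15 at -0.17 ± 0.065, with adjusted p-values of 0.606 or more in limma. When 1 heart was left out, such members numbered 4 to 10. The most were without replicate 1 of ZT07 (16.1%, against 5.31% of all genes). Next came 9 without replicate 4 of ZT19 (14.5%, against 6.47%), and the other fits gave 4 to 7. Without replicate 3 of ZT07 there were 4 (6.45%, against 4.99%). Rplp0 held 0.125, 0.056, 0.165 and -0.055 at ZT19, against -0.062, -0.14, -0.24 and -0.13 at ZT07, so the 4 ZT19 hearts lay above the 4 ZT07 hearts. This also held for Rpl29 and Rpl7a, 3 of 62 genes in all (4.84%), against 1.84% of all genes, and 41 of 62 estimates were above 0 (66.1%), against 51.2%. For ZT23 minus ZT11, 0% of all genes passed, and Rpl38, Rplp1, Rps6 and Rps18 had an unadjusted p under 0.05 (6.45%), against 7.34% of all genes. All 4 estimates were below 0 (6.45%, against 3.62% of all genes), the largest being that of Rpl38 at -0.53 ± 0.125 (adjusted p = 0.175). ZT23 lay below ZT11 without overlap for Rpl10a, Rpl38 and Rplp1 (4.84%, against 1.62%), and above without overlap for 0 genes, against 1.70%. Leaving out replicate 1 of ZT11, the same 3 genes lay below, against 3.76%, and 3 genes lay above, against 3.27%. Of the 62 estimates, 19 were above 0 (30.6%), against 49.6%, with a median of -0.029. When replicate 1 of ZT11 was left out, 31 of 62 were above 0, against 50.1% of all genes, and the median was -0.002. ZT23 minus ZT11 shares its ZT11 hearts, and ZT15 minus ZT03 its ZT03 hearts, with the comparison within the light phase.

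The 62 genes varied together only weakly over the 24 hearts. The 1891 pairs had a median Pearson correlation of 0.077 (quartiles -0.094 and 0.27), against -0.001 for pairs of all genes, and 0.094 after the time-point means were removed. Without replicate 1 of ZT11 the median was 0.048. These correlations share arrays and are given as a description. The first principal component held 21.1% of the variance. With the median of the other members, 19 genes correlated above 0.5 and 11 below 0. The closest were Rps6 at 0.86, Rps18, a protein of the small subunit's head, at 0.82, Rpl13 at 0.80 and Rpl35, a protein near the exit of the tunnel, at 0.77. Farthest were Rpl15 at -0.35, Rpl9 at -0.31, Rpl39l at -0.29 and Rpl39 at -0.24. Once the time-point means were removed, the correlation was 0.085 for Rpl15, -0.002 for Rpl9, -0.33 for Rpl39l and -0.27 for Rpl39, and 0.81 for Rps6, 0.79 for Rps18, 0.69 for Rpl13 and 0.76 for Rpl35.

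Paralogs with restricted expression were described beside their partners. Rpl3l, made in heart and skeletal muscle in place of Rpl3, held 0.080, 0.16, 0.066 and 0.11 at ZT11, against -0.066, -0.065, -0.18 and 0.076 at ZT03, a difference of 0.16 ± 0.076 (adjusted p = 0.329). Rpl3 differed by 0.005 ± 0.071. Rpl39l, known from testis, and Rpl39, which lines the exit tunnel, had -0.054 ± 0.058 and -0.10 ± 0.046. Rps27l, a paralog induced by p53 in human cells, and Rps27 had 0.033 ± 0.068 and 0.011 ± 0.084. Rpl10l, a testis paralog, differed by 0.011 ± 0.024 and had the smallest SD between hearts in the family, 0.026. The largest SD belonged to Rpl34 at 0.325, Rps13 at 0.28, Rps16 at 0.27 and Rpl10a, of the stalk that releases spent transfer RNA, at 0.20. Rpl34, for instance, reached 0.85 in replicate 4 of ZT07 and 0.71 in replicate 4 of ZT11, while the other hearts of these times lay between -0.35 and 0.020.

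Several genes were measured by more than 1 feature, and these often disagreed. Of the 24 such genes, 1 had only identical features. Of the other 23, the ZT11 minus ZT03 differences of the features had opposite signs in 11 and the same sign in 12, with a median gap of 0.21 between the highest and the lowest. The 46 pairs of features had a median correlation of 0.19 over the 24 hearts, and 13 pairs were below 0. The 2 features of Rpl4 had ZT11 minus ZT03 differences of 0.69 and -0.090 and correlated at -0.40, and those of Rpl9 by -0.034 and -0.595. The 2 features of Rplp1 were both above 0, at 0.305 (adjusted p = 0.0182 over all features in limma) and 0.125 (0.225), as were those of Rplp0 at 0.37 and 0.095. Rpl15, Rpl38 and Rps6 rest on 1 feature each. Ribosomal protein genes have many processed pseudogenes, and whether probes also bind other copies is not given in the sources used here.

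**Figure D5:**
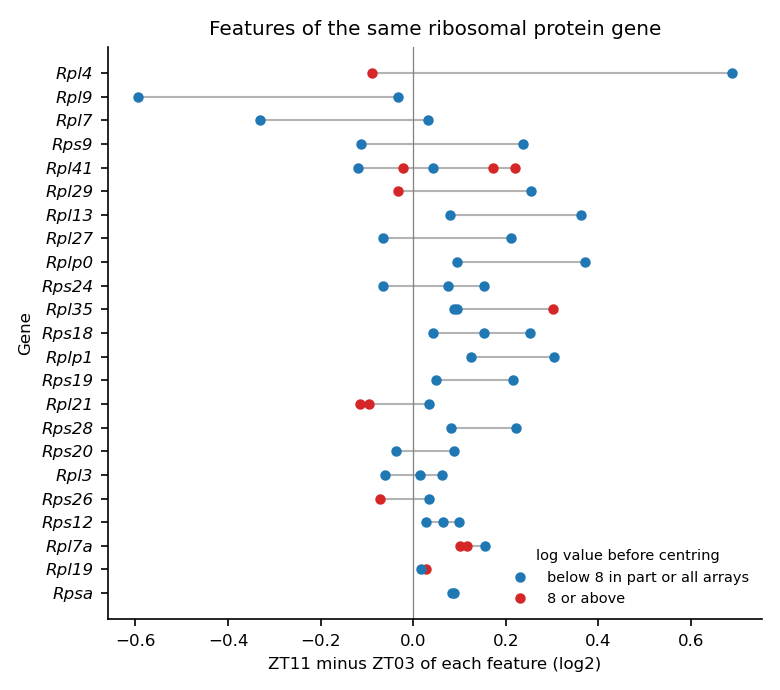
ZT11 minus ZT03 difference (log2 units) of each feature (points) for the 23 genes with features that are not identical, ordered by the gap between features (line); red points mark features whose log value was at or above 8 before centring. The widest gaps are those of Rpl4 and Rpl9, and 11 of 23 genes have features on both sides of 0.

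Genes that act with the ribosome were counted from lists for the same ZT11 minus ZT03 contrast. Over all genes, 2.29% passed and 14.5% had an unadjusted p under 0.05. Of 19 measured translation genes with a TOP motif outside the ribosome, such as elongation factors, 0 passed in limma, with 4 at an unadjusted p under 0.05 and a median of -0.030. Of 40 ribosome biogenesis factors 1 passed (2.50%), Rpf2, which loads the small ribosomal RNA of the large subunit, at -0.53 ± 0.10 (adjusted p = 0.00865), and the list's median was -0.058, below that of all genes. Of 19 RNA polymerase I genes 0 passed, with 6 at an unadjusted p under 0.05 and a median of -0.027. Among 22 genes of TOR signalling and translation control 2 passed, both lower. They were Cnbp, a protein that binds mRNAs with a TOP motif, at -0.37 ± 0.077, and Eif4e, the cap-binding factor, at -0.22 ± 0.054. At an unadjusted p under 0.05 were 7 of these 22 genes and 8 of the 40 biogenesis factors.

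Other protein complexes were counted in the same way. Of 71 mitochondrial ribosomal protein genes 2 passed (2.82%), Mrpl16 and Mrpl45, both lower, with a median of -0.019. Of 47 proteasome genes 5 passed (10.6%), 3 higher and 2 lower, with a median of -0.027. The core subunit Psma1 was lowest among these 5 at -0.45 ± 0.083 (limma, adjusted p = 0.00706). At an unadjusted p under 0.05 were 11 of the 71 mitochondrial ribosomal protein genes and 16 of the 47 proteasome genes. The 62 cytosolic ribosomal protein genes had 19 (30.6%), against 14.5% of all genes. The shares among the proteasome genes, the RNA polymerase I genes (6 of 19) and the TOR and translation control genes (7 of 22) were slightly larger than this 30.6%. The medians of both complexes were below 0 while that of the 62 cytosolic ribosomal protein genes was 0.056. Medians above 0 were also found in other lists. They were 0.095 over 6 smooth muscle markers, 0.072 over 3 ribosomal subunit genes outside the rule, 0.050 over 18 core clock genes and 0.038 over 10 cardiomyocyte markers. Smaller ones were 0.035 over 8 skeletal muscle, 0.029 over 2 red blood cell and 0.020 over 6 adipocyte markers. Over 6 neutrophil, 8 endothelial and 7 lymphocyte markers they were 0.017, 0.010 and 0.004, against 0.005 over all genes. Those of 8 fibroblast and 10 leukocyte markers were -0.104 and -0.090. The difference between lists was not tested. Of 18 core clock genes 1 passed, Arntl, at -0.58 ± 0.15 (adjusted p = 0.0417).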

How the data were processed

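Per the labels' protocols, 500 ng of TRIzol-extracted RNA from each snap-frozen heart gave the biotinylated cRNA. The authors deposited logarithms, read here as log2, centred per feature on the median over the 24 arrays, as the values themselves show. The log base, the probe summarization, filters and how arrays were normalized are not given in the sources used here, and signal over background is unknown. Array medians lay between -0.0080 and 0.0023.

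By the platform annotation 23521 features carried 1 symbol, 1814 several and 9016 none, and only those with 1 entered. The mean of its features stood for a gene (1082 genes had several), giving 22180 genes with no filter. Every member matched a RefSeq gene. A feature was placed at or above 8 before centring where its values lay on the coarser grid of single-precision numbers, within 1e-07.

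One mean per time point was fitted with limma 3.58.1 in R 4.3.3 over all 24 hearts and all genes, and tests were adjusted by Benjamini-Hochberg over all genes at 0.05. The 24 h test fitted a cosine and a sine. The script was tested on simulated data. Tables and figures were made with Python 3.11.15. Errors are SE of the fit unless SD is named.

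Members, lists, tests and alternatives were chosen with earlier results of these data known. Named members are those that passed a test, the smallest p-values and largest differences of each test, the stalk and paralog genes, and the extremes of spread and correlation; genes of other lists are those that passed. Alternatives were a replicate block, quantile normalization, array medians set to 0, array weights, the feature of largest SD, each feature on its own, robust moderation and leaving out each heart.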

Additional observations from a re-analysis of the deposited data

Results flagged for a closer look

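In each of 234 groups of 4 hearts, the heart farthest from the rest was compared with Dixon's 95% critical value for 4 samples, for the 38 named genes and for the median of the family at 6 time points. Hearts stood apart in 17 groups (7.26%), where chance gives about 1 in 20 for groups not picked from the data. The named genes were picked partly for their spread and differences, and the 24 other members were not examined. The share can therefore not be read as an excess.

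Genes described in the report account for several. Rpl38 was at 0.182 in replicate 1 of ZT03, with the other hearts between -0.108 and -0.077, and at 0.112 in replicate 2 of ZT15, with the others between -0.168 and -0.124. Rps13 was at -0.279 in replicate 4 of ZT03, with the others between 0.404 and 0.496, and at -0.491 in replicate 2 of ZT19. The stalk gene Rplp2 was at -0.001 in replicate 1 of ZT07, with the others between 0.081 and 0.090, and at 0.269 in replicate 2 of ZT23. Rpl4 was at 0.342 in replicate 4 of ZT23, Rps18 at -0.102 in replicate 3 of ZT15 and Rpl7 at -0.106 in replicate 2 of ZT07.

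Replicate 3 of ZT23 stood apart in Rpl29, at -0.212, and in Rpl39l, at 0.184, in opposite directions. Rpl10a was at -0.431 in replicate 1 of ZT23, with the others between -0.079 and -0.011. Rpl11, which binds the small ribosomal RNA of the large subunit, was at -0.153 in replicate 1 of ZT03, and Rps27l was at -0.105 in replicate 2 of ZT11, with the others between 0.092 and 0.125. Small gaps were flagged too, as in Rpl22, at -0.060 in replicate 2 of ZT07, and in Rpl32l, at 0.098 in replicate 3 of ZT19. The median of the family was 0.004 in replicate 1 of ZT07, with the others between -0.031 and -0.029.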

How the results depend on the processing

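Among alternatives that keep all hearts, the count over the ribosomal protein genes left 1.5 times its value only with array weights, where 1 passed ZT15 minus ZT03 (Rpl15). Over all genes, array weights gave 59 calls for the 24 h term, 430 for ZT15 minus ZT03 and 1 for ZT19 minus ZT07, where the reported fits gave 14, 239 and 0. Quantile normalization gave 33 calls for the 24 h term, 144 for dark minus light (45 higher and 99 lower, against 30 and 54) and 9 for ZT19 minus ZT07. With the replicate number as a block, the time-of-day test called 218 genes, against 329, and 2 members, since Rpl15 was at an adjusted p of 0.0581; Rplp0 passed ZT11 minus ZT03 at 0.0436. The labels give no shared litter or day for a number, and deviations of same-numbered hearts correlated at a median of -0.001 (60 pairs, -0.233 to 0.232), so the numbers were not taken as pairs; 10 of 24 hearts correlated best with their own number. Leaving out 1 heart at a time, calls over all genes ranged from 28 to 467 for time of day, 3 to 45 for the 24 h term, 51 to 183 for dark minus light, 25 to 326 for ZT15 minus ZT03, 0 to 3 for ZT19 minus ZT07, 0 to 4 for ZT23 minus ZT11 and 190 to 747 for ZT11 minus ZT03. Calls among the 62 genes ranged from 0 to 4 for time of day, 0 to 1 for ZT15 minus ZT03 and 1 to 5 for ZT11 minus ZT03, and were 0 to 0 for the other 4 tests. Replicate 3 of ZT03 gave the lowest counts for time of day (28), ZT15 minus ZT03 (25) and ZT11 minus ZT03 (190). Quantile normalization put Rps6 at an adjusted p of 0.0565 for ZT11 minus ZT03. Of single-gene results, Rps16 for ZT23 minus ZT11 alone changed sign, at -0.043 without replicate 4 of ZT23 (0.201 without its replicate 3, 0.10 with all hearts). Over the 62 genes and all alternatives, 30 outcomes lost and 10 gained a call. The median range of means over the 62 genes was 0.197 with the feature of largest SD. The causes of these differences were not tested. Precision is limited by 4 hearts a time point, 1 cycle and features centred on their own median.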
